A study of Mus musculus with 2 samples.

Results

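Effector CD8 T cells marked by Klrg1 were described in sorted white blood cells of the mouse eye. They were chosen by raw UMI counts, where a UMI (unique molecular identifier) tags 1 captured RNA molecule. A cell had to hold at least 2 UMIs of Cd3d, Cd3e and Cd3g together, at least 1 of Cd8a and Cd8b1 together, none of Cd4 or Cd79a, fewer than 5 of Lyz2, and at least 1 of Klrg1. This rule found 234 cells among 7400 cells in all: 44 of 631 CD8 T cells in the flox library and 190 of 990 in the knockout library. The 1387 CD8 T cells left, with Klrg1 at 0, are called the other CD8 cells.

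The cells came from the retinal pigment epithelium (RPE) and choroid, the pigmented and vascular layers behind the retina, digested with collagenase and dispase and sorted as live CD45+ leukocytes. Mice of both groups received NaIO3, an oxidant toxic to the RPE, at 20 mg/kg by intraperitoneal injection. The flox group has the genotype IL-17ra fl and the knockout group IL-17RA CKO, a conditional deletion of the interleukin-17 receptor. There is 1 library per group. Where the deletion acts, which exons it removes, and the age and number of the mice are not stated by the sources used here.

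CD8 T cells kill infected or altered cells with perforin and granzymes and secrete interferon-gamma. Klrg1 encodes an inhibitory lectin receptor that binds cadherins, and it marks effector CD8 T cells late in their differentiation. Such cells usually carry the transcription factors T-bet and Zeb2 and the migration receptors Cx3cr1 and S1pr5, which belong to cells of the circulation, and they have lost Il7r and Ccr7, genes of naive and memory cells.

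Before the results, several properties of the libraries matter. The flox matrix was made with version 4 of the counting software Cell Ranger and the knockout matrix with version 7.0.1. Counting version and genotype therefore cannot be told apart in any ratio between the libraries, and the effect of the version was not tested. Cells with Xist and cells with Y-linked RNA were found in both libraries, so each mixes female and male mice, in different proportions. Of the Klrg1 CD8 cells, 72.7% were female and 20.5% male in the flox library, against 22.1% and 56.3% in the knockout library. The libraries shared 3 barcodes among all cells, and no Klrg1 CD8 cell was among them. Median depth was 8526 UMIs per Klrg1 CD8 cell in the flox library and 6640 in the knockout library, and 9154 and 8471 in the other CD8 cells, with median mitochondrial shares of 1.46% and 1.60% in the Klrg1 CD8 cells. Because there is 1 library per group, no test of genotype was possible and no p-value is given. Levels are UMIs of a gene per 1000000 UMIs (CPM), summed over the cells, and values in parentheses are 95% intervals that cover counting error only, not the spread between mice.

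Il17ra itself was seen in both groups. Its level in Klrg1 CD8 cells was 61.6 CPM from 24 UMIs in the flox library and 102 CPM from 136 UMIs in the knockout library. In the other CD8 cells it was 68.8 and 77.7 CPM. A 3′ tag outside the deleted exons does not check a genotype, so the libraries are named after their labels only.

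The label of the cells was compared with their marker genes. Zeb2, a zinc-finger transcriptional repressor that promotes terminal effector differentiation (chromosome 2, 44983632 to 45117395 on the minus strand, mm10), had a level of 439 CPM (375 to 510) in the Klrg1 CD8 cells of the flox library, and of 753 CPM (707 to 801) in those of the knockout library. Gzma, which encodes the granule protease granzyme A (chromosome 13, 113093825 to 113100981, minus strand), had 1724 CPM (1596 to 1859) and 4139 CPM (4031 to 4250). Cd8a, the CD8 alpha chain (chromosome 6, 71373427 to 71379173, plus strand), was at 428 and 537 CPM, close to the 381 and 485 CPM of the other CD8 cells. Nebl, a nebulin-family actin-binding protein (chromosome 2, 17343909 to 17731464, minus strand), was at 18.0 CPM (7.22 to 37.0) in the flox cells, from 7 UMIs of which 57.1% lay in 1 cell, and at 114 CPM (96.6 to 134) in the knockout cells. Cd8a was part of the rule and supports nothing. Gzma was seen in 141 of 190 knockout cells but in 19 of 44 flox cells, 43.2% (28.3 to 59.0), so the median flox cell held none. The effector label thus described most knockout cells by Zeb2 and Gzma, whereas many flox cells chosen by the same rule lacked Gzma. Nebl was absent from most cells of both libraries. It was seen in 36.2% of knockout cells with 1 Klrg1 UMI and 34.7% of those with at least 2, against 6.90% and 13.3% in the flox library.

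Summed marker genes of other leukocytes were low in the Klrg1 CD8 cells, but not all were below the levels of the other CD8 cells. Summed over 8 NK cell markers, the level was 259 and 263 CPM, with Ncr1, the NK cell receptor NKp46, at 0 and 6.75 CPM. The other CD8 cells held less of that list, 222 and 164 CPM. Klrb1c, another member, was above the other CD8 cells in the knockout library, as given below. NK cells of the same libraries, chosen by Ncr1 and Klrb1c without CD3, reached 8928 and 9277 CPM for that list. The 8 B cell markers summed to 133 and 94.5 CPM, with Ms4a1 at 0 in both libraries. The 10 monocyte and macrophage markers summed to 249 and 177 CPM, and 7 and 2 of them were at 0. The 8 gamma-delta T cell markers summed to 53.9 and 93.8 CPM, with Trdc, the delta constant gene, at 0 and 10.5 CPM, the latter from 1 cell. The 5 NKT and MAIT cell genes summed to 190 and 172 CPM, above the 118 and 102 CPM of the other CD8 cells. The CD4 and regulatory T cell list summed to 318 and 208 CPM, of which Ctla4, a checkpoint receptor that activated CD8 cells also carry, gave 141 and 78.0 CPM. Cd40lg, the CD40 ligand best known from CD4 helper cells, gave 0 and 80.3 CPM, the latter against 15.1 CPM in the other CD8 cells. Its part in the results below was not tested.

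Klrg1 (chromosome 6, 122270596 to 122282882, minus strand) chose these cells, so its own values are a description. It gave 85 UMIs in the flox and 471 UMIs in the knockout cells. A single threshold UMI was held by 29 of 44 flox cells and 69 of 190 knockout cells, which lie just inside the rule, while 15 and 121 cells held at least 2. The most in any cell was 8 and 9. NK cells carried Klrg1 in 59.4% and 59.0% of cells, and B cells, which should lack it, in 0.339% and 0.432%, at median depths of 6000 and 6356 UMIs.

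Klrg1 CD8 cells made up 6.97% (5.11 to 9.25) of CD8 T cells in the flox library and 19.2% (16.8 to 21.8) in the knockout library, a difference of 12.2 percentage points (8.97 to 15.3). With each cell thinned to 2000 UMIs the shares were 2.56% (16 of 625 cells) and 11.1% (108 of 974), after 6 and 16 shallower cells were left out, and the difference was 8.53 points (6.13 to 10.9). Within female cells the shares were 6.96% and 15.1%, 8.15 points apart (3.55 to 13.2). Within male cells they were 9.57% (9 of 94) and 24.9% (107 of 429), 15.4 points apart (6.82 to 21.6). The knockout share was the higher in each of these splits, and its size there depended on sex and depth. Of all leukocytes, Klrg1 CD8 cells were 1.29% and 4.77%.

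**Figure D1:**
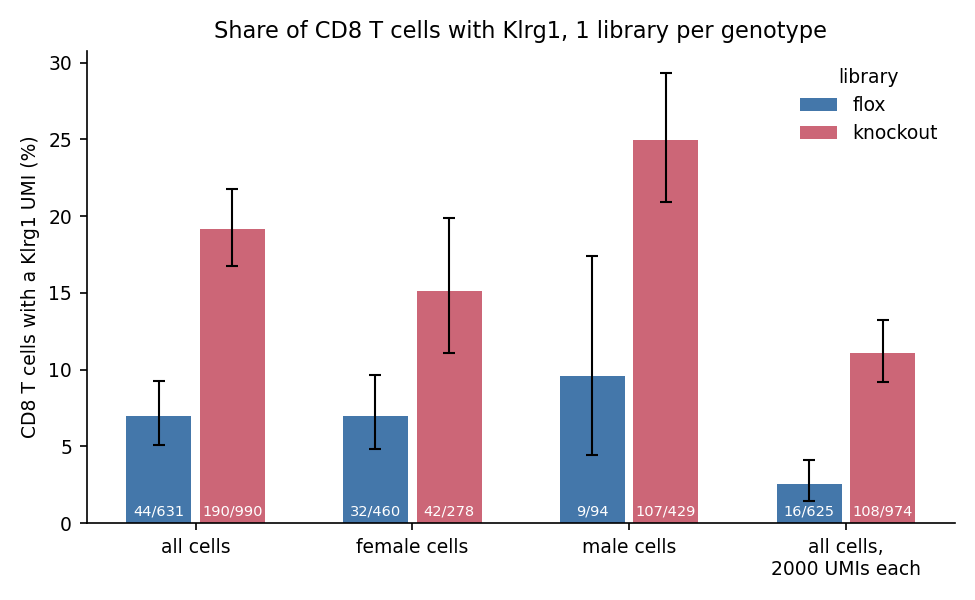
Share of CD8 T cells with at least 1 Klrg1 UMI (y axis, percent) in the flox (blue) and knockout (red) library, for all cells, female cells, male cells and all cells thinned to 2000 UMIs; bars are shares, error bars 95% Clopper-Pearson intervals, and the numbers in the bars are cells. The knockout share was higher in all 4 settings, from 11.1% against 2.56% in thinned cells to 24.9% against 9.57% in male cells.

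Set against the other CD8 cells of the same library, 286 of 8669 measured genes (3.3%) were past 2-fold higher in the knockout Klrg1 CD8 cells and 333 (3.84%) past 2-fold lower. In the flox library, with fewer cells, 71 of 5142 genes (1.38%) were past 2-fold higher and 130 (2.53%) lower. A gene counted as measured where equal levels would give 10 UMIs in the smaller group. The median of all measured genes was shifted by a log2 ratio of 0.19 in the knockout and 0.13 in the flox library, and with scaling by that median the counts were 162 higher and 488 lower in the knockout and 38 higher and 173 lower in the flox library. Klrg1 cells were picked by a gene of the same RNA profiles, so these contrasts describe the cells and support nothing about them. Of 5141 genes measured in both libraries, 20 were past 2-fold higher in both, which is 19.6% of the 102 in the knockout and 28.2% of the 71 in the flox library, and 48 were lower in both, 39.3% of 122 and 36.9% of 130.

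Between the libraries, 269 of 5490 measured genes (4.9%) were past 2-fold higher in the knockout Klrg1 CD8 cells than in the flox ones, and 136 (2.48%) were lower. In the other CD8 cells the same contrast gave 294 of 11331 genes (2.59%) higher and 175 (1.54%) lower. The medians of all measured genes lay at log2 ratios of 0.08 and 0.02. With only 44 flox cells, a few cells could set a flox level, and the share held by the highest cell is given where it was large.

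Granule and killing genes were at higher levels in Klrg1 CD8 cells than in the other CD8 cells of either library. For the knockout, 6 of 13 measured members were past 2-fold higher and none lower, with a median log2 ratio of 0.91, and for the flox library 3 of 12 were higher and none lower, with a median of 0.74. Gzma was 15.9-fold higher (15.1 to 16.7) than the 261 CPM of other knockout CD8 cells, and 19.1-fold higher (17.0 to 21.5) than the 90.2 CPM of other flox CD8 cells. Gzmb, the granzyme that triggers apoptosis, stood at 803 against 128 CPM in the knockout and 423 against 140 CPM in the flox library. Prf1, the pore-forming perforin, stood at 185 against 70.4 CPM and 167 against 98.3 CPM. Fasl, the death ligand, was at 419 against 173 CPM and 308 against 180 CPM. Serpinb9, an inhibitor that shields killer cells from their own granzyme B, was at 205 against 79.7 CPM and 200 against 108 CPM. For each of these 5 genes the Klrg1 CD8 cells were the higher in both libraries, and their intervals excluded equal levels. Sex limits this for the flox library, which had 9 male Klrg1 CD8 cells. In male flox cells Fasl was at 161 against 162 CPM, and Prf1 at 75.3 CPM (30.3 to 155) against 63.4 CPM (48.8 to 80.9). Gzma, at 990 against 69.3 CPM, and Gzmb, at 463 against 142 CPM, stayed higher there.

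Between the libraries, Gzma was 2.40-fold higher (2.22 to 2.61) in the knockout Klrg1 CD8 cells, beside 2.89-fold in the other CD8 cells. Gzmb was 1.90-fold higher (1.61 to 2.25), beside a ratio of 0.915 in the other cells, but in cells with at least 2 Klrg1 UMIs it was at 857 CPM (797 to 920) in knockout and 763 CPM (616 to 934) in flox cells, with overlapping intervals. In those cells the log2 ratio of Gzma was 0.41. Prf1 at 1.11-fold (0.842 to 1.48) could not be separated from equal levels. Gzmk, a granzyme of earlier effector and memory cells, had the reverse order, with 405 CPM in the flox and 192 CPM in the knockout cells, a ratio of 0.474 (0.387 to 0.581). Over the list, 2 of 13 measured members were past 2-fold higher in the knockout cells, Gzma and Gzmm, and 1 lower, with a median log2 ratio of 0.14. The Gzmm order rests on 6 flox UMIs and was turned in thinned cells, where its log2 ratio was -0.38. NK cells held 12970 and 12830 CPM of Gzma, well above the Klrg1 CD8 cells in both libraries.

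The Gzma promoter is shown because Gzma had the largest ratio to the other CD8 cells among the granule genes in both libraries, and the motifs of both Tbx21 and Zeb2 products can be looked for in it. It is the 250 bases before the RefSeq start, GRCm38.p6, chr13:113100982-113101231, minus strand, printed 5′ to 3′.
Gzma promoter: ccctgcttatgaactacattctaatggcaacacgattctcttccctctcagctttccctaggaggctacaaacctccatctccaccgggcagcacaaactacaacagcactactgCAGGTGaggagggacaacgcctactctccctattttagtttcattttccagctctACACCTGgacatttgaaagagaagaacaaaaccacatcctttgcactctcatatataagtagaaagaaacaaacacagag
Capitals mark letters of the T-box core AGGTGT (read on the other strand as ACACCT, 80 bases before the start) and of the E-box of ZEB factors, CAGGTG, found 135 bases before the start on the gene's strand and as CACCTG on the other strand 79 bases before it, overlapping the T-box match. Among 32851 promoter windows of the same length, 11.8% held the T-box core and 17.2% the E-box on either strand. The same windows of Cx3cr1 and S1pr5, the other 2 promoters searched, held neither motif, which says only that these letters are not in those windows. The matches are letters in a window and were not tested as binding sites.

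Among effector transcription factors, Zeb2 had the largest ratio to the other CD8 cells in both libraries, 7.40-fold (6.73 to 8.14) in the knockout library, where they held 102 CPM, and 8.54-fold (7.03 to 10.3) in the flox library, where they held 51.4 CPM. Sex moved the flox value: Zeb2 was at 536 against 46.2 CPM in female cells, but at 118 CPM (59.1 to 212) against 75.3 CPM (59.3 to 94.2) in male cells, with overlapping intervals from 9 Klrg1 CD8 cells. Tbx21, which encodes T-bet, the driver of cytotoxic and interferon-gamma genes, stood at 305 against 154 CPM and 208 against 107 CPM. Klf2, a factor that keeps lymphocytes in circulation, was at 1460 against 434 CPM in the knockout but at 618 against 381 CPM in the flox library. Prdm1, which encodes the repressor Blimp-1, was at 63.0 against 27.6 CPM and 46.2 against 31.2 CPM, the flox interval (0.858 to 2.41) including equal levels. For the knockout, 3 of 10 measured factors, Zeb2, Prdm1 and Klf2, were past 2-fold higher with a list median log2 ratio of 0.85, and in the flox library 1 of 9, Zeb2, with a median of 0.60; none was past 2-fold lower in either. Between libraries the knockout Klrg1 CD8 cells held 1.72-fold more Zeb2 (1.46 to 2.03), 1.47-fold more Tbx21 (1.16 to 1.89) and 2.36-fold more Klf2 (2.06 to 2.71), beside 1.98, 1.44 and 1.14-fold in the other CD8 cells. In cells with at least 2 Klrg1 UMIs the Klf2 log2 ratio was 0.30 and Zeb2 was at 817 CPM in knockout and 860 CPM in flox cells, so the order of Zeb2 was turned, with overlapping intervals.

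Receptors of migration were next. Cx3cr1, the receptor for fractalkine (chromosome 9, 119901616 to 120069879, minus strand), stood at 466 CPM (430 to 504) in knockout and 210 CPM (167 to 261) in flox Klrg1 CD8 cells, against 43.7 and 41.4 CPM in the other CD8 cells. S1pr5, a receptor for sphingosine-1-phosphate that guides exit from tissue (chromosome 9, 21242912 to 21248443, minus strand), was at 159 CPM (138 to 182) and 61.6 CPM (39.4 to 91.6), against 8.09 and 5.52 CPM. In female flox cells Cx3cr1 was at 272 against 42.9 CPM and S1pr5 at 64.3 against 5.42 CPM. In male flox cells the intervals overlapped for Cx3cr1, at 43.0 CPM (11.7 to 110) against 17.8 CPM (10.6 to 28.2). They also overlapped for S1pr5, at 10.8 CPM (0.272 to 60.0) against 8.91 CPM (4.07 to 16.9). Itgal and Itgb2, the chains of the integrin LFA-1, were 2.47-fold and 2.44-fold higher than in other CD8 cells in the knockout, and 1.83-fold and 1.76-fold higher in the flox library. Over the list, 6 of 17 measured members were past 2-fold higher in the knockout (median log2 ratio 0.56) and 2 of 15 in the flox library (median 0.35), none lower.

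Migration receptors differed between the libraries in both directions. Cx3cr1 was 2.21-fold (1.76 to 2.82) and S1pr5 2.58-fold (1.69 to 4.12) higher in the knockout cells, with log2 ratios of 0.17 and 0.68 in cells with at least 2 Klrg1 UMIs. Ccr2, a receptor for monocyte chemokines, was at 349 CPM in the flox and 107 CPM in the knockout Klrg1 CD8 cells, a ratio of 0.305 (0.240 to 0.389), beside 0.770 in the other CD8 cells. Of 16 measured members, 2 were past 2-fold higher in the knockout cells and 2 lower.

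**Figure D2:**
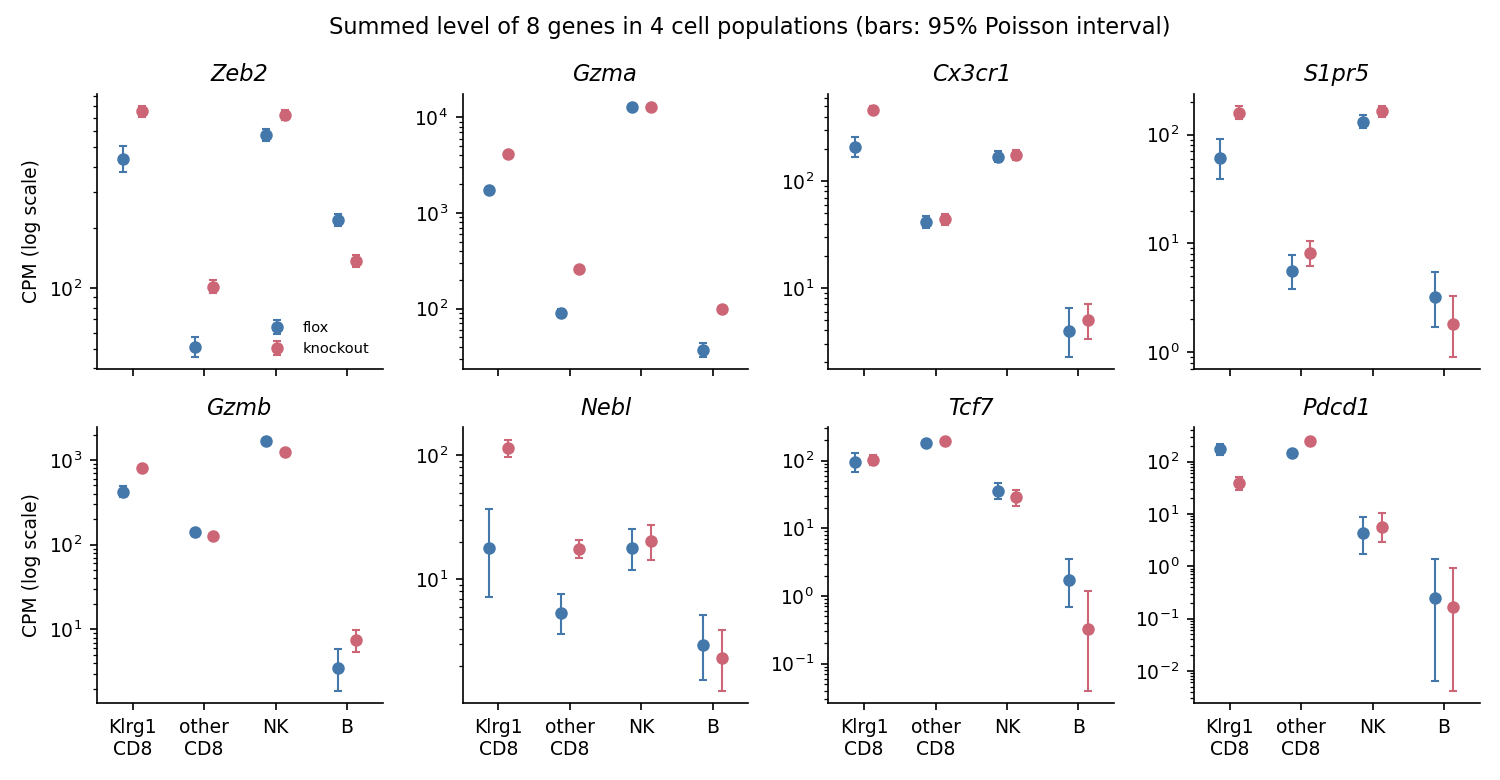
Level of 8 genes (y axes, CPM on a log scale) in Klrg1 CD8 cells, other CD8 cells, NK cells and B cells of the flox (blue) and knockout (red) library; points are levels summed over cells and bars 95% Poisson intervals. Zeb2, Gzma, Cx3cr1, S1pr5 and Gzmb lie above the other CD8 cells in both libraries, and Pdcd1 lies at 174 CPM in the flox but 39.0 CPM in the knockout Klrg1 CD8 cells.

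Shares of cells with a UMI gave the same order of the populations. Zeb2 was seen in 80.5% of knockout and 61.4% of flox Klrg1 CD8 cells, and in 63.8% and 38.6% after thinning to 2000 UMIs, which left out 2 and 0 cells. Cx3cr1 was seen in 74.2% and 43.2%, thinned 51.1% and 31.8%, against 2.38% and 1.69% of B cells. Gzma was seen in 74.2% and 43.2%, thinned 69.7% and 36.4%, against 3.24% and 1.53% of B cells. For Zeb2, B cells are no blank, since 33.6% and 40.8% of them carried it.

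Receptors best known from NK cells were also high. For the knockout, 6 of 11 measured members were past 2-fold higher in Klrg1 CD8 cells and none lower (median log2 ratio 1.04), and in the flox library 4 of 7 were higher and 1 lower (median 1.13). Klrk1, the activating receptor NKG2D, stood at 845 against 372 CPM and 500 against 216 CPM. Klre1, a lectin receptor of killer cells, stood at 496 against 102 CPM and 208 against 59.8 CPM. Both were past 2-fold in both libraries, but the log2 ratio of Klrk1 was 0.93 in female knockout cells and 0.055 in male flox cells. The order of Klre1 was turned in male flox cells, with overlapping intervals. It was at 43.0 CPM (11.7 to 110), from 4 UMIs, against 57.4 CPM (43.6 to 74.2). Klrc1, which encodes the inhibitory NKG2A chain, was 2.65-fold higher (2.13 to 3.28) in the flox but 1.43-fold (1.26 to 1.61) in the knockout library.

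Other receptors of this group separated the libraries. Klrb1c, the NK1.1 receptor, was at 93.0 CPM in 33.2% of knockout Klrg1 CD8 cells and at 10.3 CPM, from 4 UMIs, in the flox ones, against 11.5 and 9.14 CPM in the other CD8 cells. The ratio between libraries was 9.06 (3.45 to 33.8). All 4 flox UMIs lay in the 15 cells with at least 2 Klrg1 UMIs, where Klrb1c was at 32.5 CPM (8.85 to 83.1), against 96.2 CPM (76.8 to 119) in the knockout library. Cd160, a receptor for HVEM, was at 107 and 23.1 CPM, and Cd244a, the receptor 2B4, at 74.3 and 15.4 CPM. In all, 5 of 10 measured NK receptors were past 2-fold higher in the knockout cells and none lower, with a median log2 ratio of 1.0. In cells with at least 2 Klrg1 UMIs that median was 0.14.

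Klra9, 1 of the Ly49 receptors for MHC class I, was seen in Klrg1 CD8 cells of the knockout library only, although the gene was detectable in both libraries. Its level was 298 CPM (269 to 329) in knockout Klrg1 CD8 cells against 0 UMIs in the flox ones, which makes it at least 38.7-fold higher against a floor of 3 counts over the group. It was seen in 71 of 190 knockout cells, 37.4%, and in 0 of 44 flox cells, an interval reaching 8.04%. Thinned, the knockout share was 28.2%. The other CD8 cells showed it in 5.75% and 2.56% of cells, B cells in 0.648% and 0.339%, and NK cells in 72.8% and 65.5%. It was present in both sexes of the knockout cells, at 187 CPM in female and 296 CPM in male cells, and the highest cell held 6.30% of its UMIs. Ly49 genes are near copies of each other, so reads may be split among them.

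Among cytokines and chemokines, Ccl5, the chemokine RANTES, was at 22221 CPM in knockout and 20034 CPM in flox Klrg1 CD8 cells, 2.86-fold and 2.05-fold above the other CD8 cells. Ifng, interferon-gamma, was at 433 against 179 CPM in the knockout and 156 against 104 CPM in the flox library. Ccl4, a chemokine that draws T cells and monocytes, was at 1974 against 513 CPM in the knockout and 544 against 392 CPM in the flox library, where 1 cell held 40.6% of its UMIs. In flox cells with at least 2 Klrg1 UMIs neither gene was above the other CD8 cells. Ifng was at 97.4 CPM (50.3 to 170) and Ccl4 at 373 CPM (273 to 498) there. Xcl1, the ligand of cross-presenting dendritic cells, was low, at 39.8 against 307 CPM and 46.2 against 173 CPM. Of 7 measured members in the knockout library 3 were past 2-fold higher and 1 lower (median log2 ratio 0.42), and of 6 in the flox library 1 higher and 2 lower (median 0.44). Between the libraries Ccl4 was 3.63-fold (3.15 to 4.19) and Ifng 2.77-fold (2.12 to 3.66) higher in the knockout cells, and 3 of 6 measured members were past 2-fold higher with a median log2 ratio of 1.17. Within female cells the log2 ratio was 0.89 for Ccl4 and 0.89 for Ifng, under 2-fold. In cells with at least 2 Klrg1 UMIs it was 2.31 for Ccl4 and 2.30 for Ifng.

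Receptors for cytokines that induce Ifng differed between the libraries, less so in cells with more Klrg1. Il12rb2, the signalling chain of the interleukin-12 receptor, was at 311 CPM in knockout and 79.5 CPM in flox Klrg1 CD8 cells, against 57.3 and 46.0 CPM in the other CD8 cells; 1 flox cell held 54.8% of its UMIs. Il18rap, the accessory chain of the interleukin-18 receptor, was at 314 and 126 CPM, against 52.8 and 57.9 CPM. In cells with at least 2 Klrg1 UMIs, Il12rb2 was at 326 CPM (289 to 366) in knockout and 243 CPM (164 to 348) in flox cells. Il18rap was at 350 CPM (312 to 391) and 219 CPM (144 to 319) there. The intervals of both genes overlapped, which does not show equal levels. Their log2 ratios were 0.40 for Il12rb2 and 0.65 for Il18rap. The log2 ratio of Il18r1 between the libraries was -0.018 in those cells. Of 16 measured cytokine receptors in the knockout library 2 were past 2-fold higher, Il12rb2 and Il18rap, and 2 lower, Il7r and Il6ra (median log2 ratio 0.18). For the flox library, 1 of 15 was higher and 3 lower (median 0.10). Between the libraries 3 of 14 were past 2-fold higher in the knockout cells and none lower (median 0.30).

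Genes of naive and memory cells were low in both libraries. For the knockout, 10 of 15 measured members were past 2-fold lower in Klrg1 CD8 cells and none higher, with a median log2 ratio of -1.25, and in the flox library 6 of 12 were lower and none higher, with a median of -1.0. Il7r, the interleukin-7 receptor that sustains memory cells, was at 190 against 463 CPM in the knockout and 151 against 448 CPM in the flox library. Satb1, a chromatin organiser of naive T cells, was at 91.5 against 280 CPM and 56.4 against 352 CPM. Bach2, a repressor of effector genes, was at 88.5 against 275 CPM and 108 against 271 CPM. Tcf7, which encodes the memory factor TCF-1, was at 101 against 192 CPM and 94.9 against 180 CPM, the same ratio of 0.528 in both. Ccr7, the lymph node homing receptor, was at 5.25 against 94.5 CPM and 18.0 against 72.1 CPM, and Dapl1, a gene of naive cells, was at 0 UMIs in the knockout cells, at least 37.0-fold lower than in the other CD8 cells. Within 1 sex some of these genes were under 2-fold or turned. In male flox cells the log2 ratios of Il7r and Bach2 were -0.59 and -0.45. Dapl1 was at 75.3 CPM (30.3 to 155) against 49.5 CPM (36.7 to 65.3) there, with overlapping intervals. In female knockout cells the log2 ratio of Satb1 was -0.85.

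Between the libraries this group differed little. Of 10 measured members 2 were past 2-fold lower in the knockout cells, Eomes among them, and none higher, with a median log2 ratio of -0.12. Il7r at 1.25-fold (0.941 to 1.69), Tcf7 at 1.07-fold (0.737 to 1.58) and Bach2 at 0.822-fold (0.573 to 1.2) could not be told from equal levels at this depth. Eomes, a T-box factor of memory and NK cells, was at 180 CPM in the flox and 75.8 CPM in the knockout cells, but its log2 ratio was 0.15 in female cells alone.

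**Figure D3:**
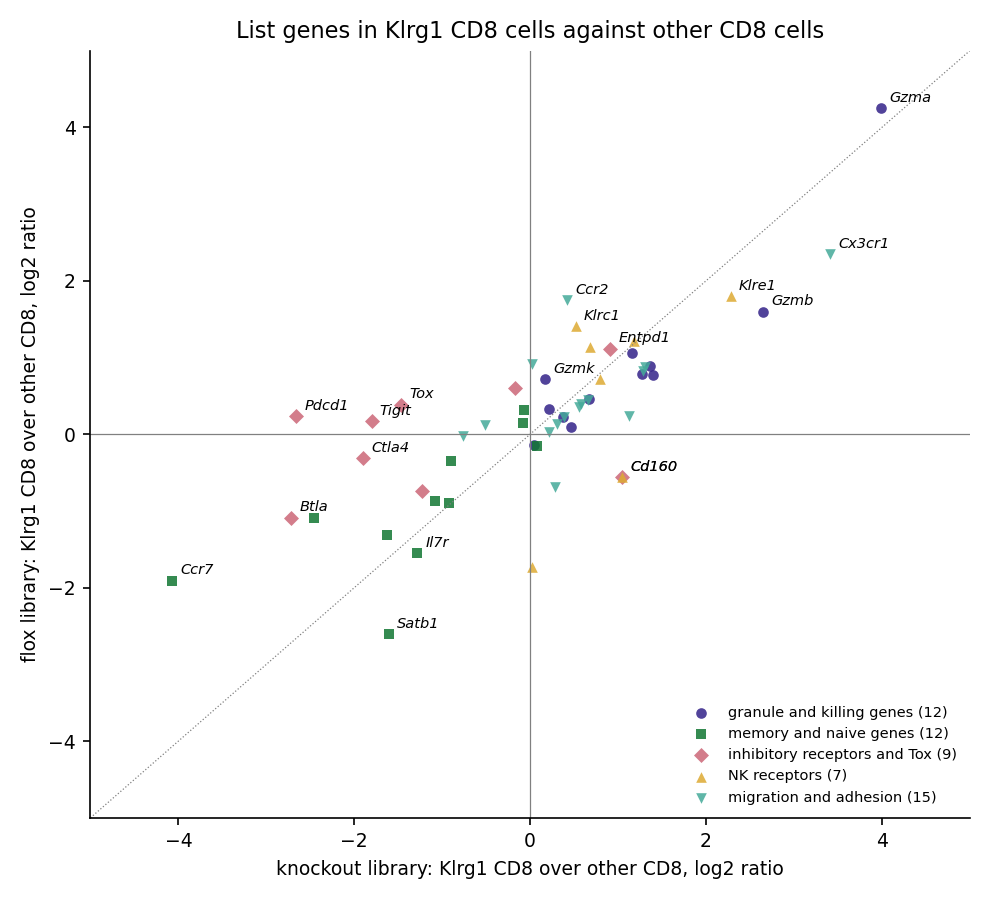
Log2 ratio of Klrg1 CD8 cells over other CD8 cells in the knockout (x axis) and flox (y axis) library for the genes of 5 lists measured in both; each point is 1 gene and the dotted line marks equal ratios (Cd160 stands in 2 lists). Granule genes lie mostly at upper right and memory genes at lower left, while Tox and Pdcd1 lie left of 0 in the knockout library but above 0 in the flox library.

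Inhibitory receptors and Tox, a factor of chronically stimulated T cells, had different ratios in the 2 libraries. For the knockout, 7 of 11 measured members were past 2-fold lower in Klrg1 CD8 cells and 1 higher, with a median log2 ratio of -1.47. For the flox library, 1 of 9 was lower and 1 higher, with a median of 0.18. Pdcd1, which encodes PD-1, was at 39.0 CPM (52 UMIs) in knockout Klrg1 CD8 cells against 249 CPM in the other CD8 cells, but at 174 CPM (68 UMIs) against 149 CPM in the flox library. Tox was at 179 against 494 CPM in the knockout and 708 against 542 CPM in the flox library. Ctla4 was at 78.0 against 294 CPM and 141 against 177 CPM, and Tigit, a receptor for CD155, at 15.8 against 56.2 CPM and 43.6 against 39.7 CPM.

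Between the libraries, Tox had a ratio of 0.252 (0.211 to 0.301) and Pdcd1 of 0.224 (0.153 to 0.326) in Klrg1 CD8 cells, beside 0.911 and 1.67 in the other CD8 cells. Over the list 2 of 6 measured members were past 2-fold lower and 1, Cd160, higher, with a median log2 ratio of -0.70. Tox was seen in 20.5% of knockout and 65.9% of flox Klrg1 CD8 cells, thinned 14.4% and 50%, against 1.19% and 1.02% of B cells. Pdcd1 was seen in 11.1% and 38.6%, thinned 4.26% and 20.5%, against 0.108% and 0.169% of B cells. Within sexes, Tox was at 800 CPM in female and 495 CPM in male flox cells, and at 326 and 139 CPM in female and male knockout cells. Pdcd1 was at 200 and 86.1 CPM in the flox and 26.7 and 55.0 CPM in the knockout cells. The flox level was the higher in each sex, but for Pdcd1 in male cells, with 8 UMIs in 9 flox cells, the intervals overlapped (37.2 to 170 and 39.4 to 74.5). Tox in knockout Klrg1 CD8 cells had a log2 ratio to the other CD8 cells of -0.38 in female and -1.61 in male cells.

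Levels were then set against the number of Klrg1 UMIs per cell, the quantity of the rule, so the values are a description. Cells with 1 and with at least 2 had median depths of 8560 and 8461 UMIs in the flox and 6187 and 6783 UMIs in the knockout library. For the flox library, Zeb2 was at 51.4 CPM in cells with none, 244 CPM in the 29 cells with 1, and 860 CPM in the 15 cells with at least 2. The knockout levels of Zeb2 were 102, 628 and 817 CPM. Cx3cr1 was at 41.4, 90 and 471 CPM in the flox and 43.7, 334 and 533 CPM in the knockout library. Pdcd1 was at 149, 236 and 40.6 CPM in the flox and 249, 57.9 and 29.4 CPM in the knockout library. Cells with at least 2 Klrg1 UMIs thus had closer levels of Zeb2, Cx3cr1 and Pdcd1 in the 2 libraries than cells with 1.

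Some genes kept a gap in cells with at least 2 Klrg1 UMIs. Tox was at 349 CPM in the 15 flox and 183 CPM in the 121 knockout cells. Gzma was at 3490 and 4637 CPM, Ccl4 at 373 and 1870 CPM, and Ccr2 at 438 and 93.9 CPM. Ifng was at 97.4 and 499 CPM, and Itga1 at 64.9 and 232 CPM. Klra9 was at 0 UMIs and 364 CPM. Over the granule genes the median log2 ratio between libraries was -0.18 in these cells.

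**Figure D4:**
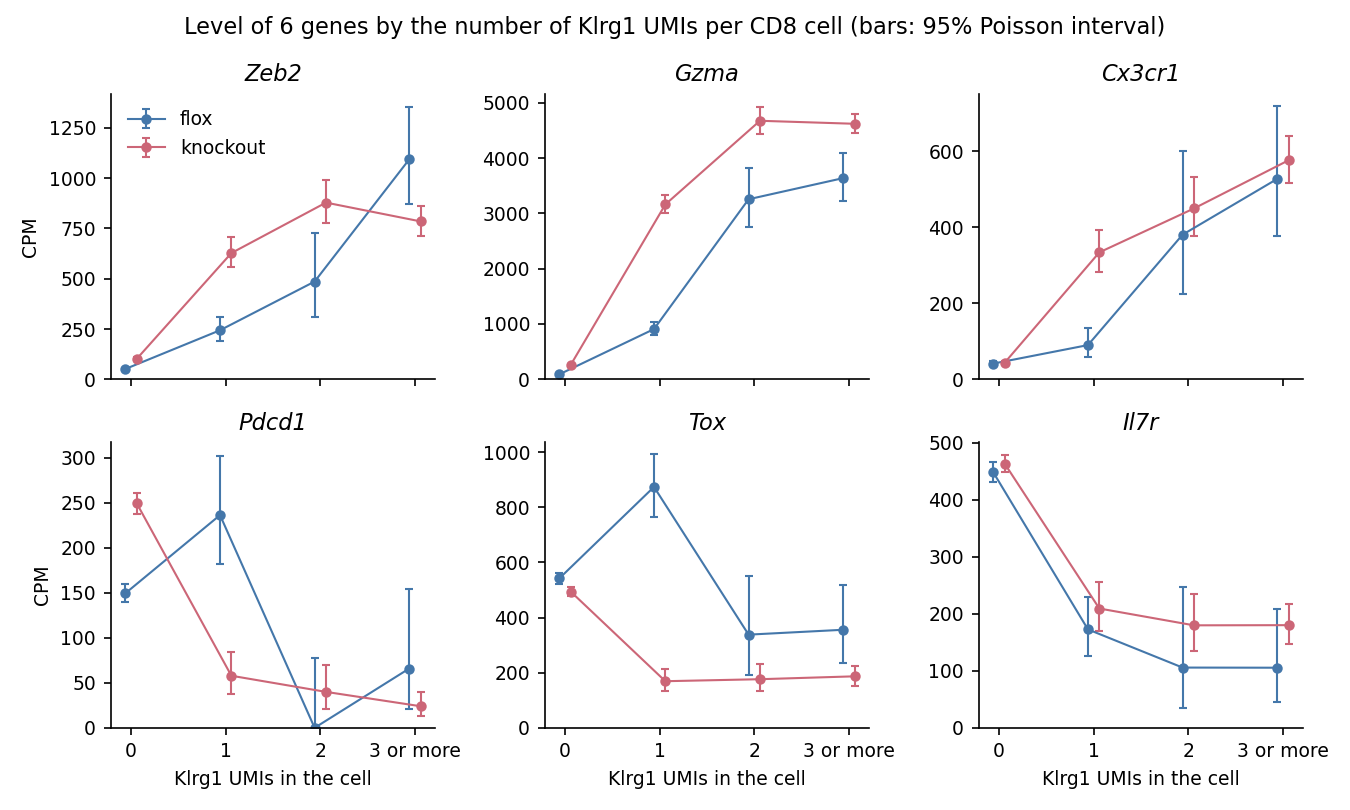
Level of 6 genes (y axes, CPM) by the number of Klrg1 UMIs in a CD8 cell (x axis: 0, 1, 2, 3 or more) in the flox (blue) and knockout (red) library; bars are 95% Poisson intervals, and the flox points rest on 587, 29, 6 and 9 cells. Zeb2 and Cx3cr1 reach 1094 and 527 CPM in flox cells with 3 or more, beside 785 and 576 CPM in the knockout library, and among flox cells Tox and Pdcd1 are highest in those with 1, at 874 and 236 CPM.

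Single cells combined these genes in different ways. Zeb2, Gzma and Cx3cr1 were all present in 12 of 44 flox Klrg1 CD8 cells, 27.3% (15.0 to 42.8), and in 110 of 190 knockout cells, 57.9% (50.5 to 65.0). None of the 3 was present in 10 flox and 22 knockout cells. Among the other CD8 cells, all 3 were present in 1.87% and 6.88%. Tox or Pdcd1 was present in 32 flox cells, 72.7% (57.2 to 85.0), and in 43 knockout cells, 22.6% (16.9 to 29.2), against 81.9% and 74.8% of the other CD8 cells. Among cells with all 3 effector genes, 6 of 12 flox and 14 of 110 knockout cells also held Tox or Pdcd1. Among cells with none of the 3, 9 of 10 and 12 of 22 did. Of the other CD8 cells with none of the 3, 79.8% in the flox and 77.0% in the knockout library held Tox or Pdcd1, so this is not particular to Klrg1 cells.

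Genes of tissue residency were mixed. Itga1, the collagen-binding integrin CD49a, was at 221 CPM in knockout and 110 CPM in flox Klrg1 CD8 cells, where 1 cell held 30.2% of its UMIs, against 155 and 68.3 CPM in the other CD8 cells. Cd69, which holds cells in tissue, was at 155 against 272 CPM and 259 against 269 CPM. Itgae, the CD103 integrin of epithelial residents, was at 17.3 and 15.4 CPM. Cx3cr1 and Itga1 were found in the same cell in 75 of 190 knockout cells, 39.5% (32.5 to 46.8), and in 3 of 44 flox cells, 6.82% (1.43 to 18.7). The other CD8 cells held both in 7.25% and 2.04%. Cx3cr1 without Itga1 was found in 34.7% of knockout and 36.4% of flox Klrg1 CD8 cells, and Itga1 without Cx3cr1 in 14.2% and 13.6%. Whether these genes met in a cell more often than their separate shares would give was not tested. Of 11 measured members 1 was past 2-fold higher in the knockout library, the nuclear receptor gene Rora, and 1 lower, Xcl1 (median log2 ratio 0.21). In the flox library 1 of 9 was lower and none higher (median 0.12). Between the libraries 2 of 9 were past 2-fold higher in the knockout cells, Itga1 and Rora, and none lower (median 0.46). In female cells their log2 ratios were 0.34 and 0.85, under 2-fold, while that of Rora was 4.48 in male cells. In cells with at least 2 Klrg1 UMIs the log2 ratios of Itga1 and Rora were 1.75 and 0.89. Itga1 was also past 2-fold higher in the knockout library among the other CD8 cells, where Rora had a ratio of 0.894.

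Genes induced by type I interferon were low in the knockout Klrg1 CD8 cells. In that library 8 of 13 measured members were past 2-fold lower than in the other CD8 cells and none higher (median log2 ratio -1.40), while in the flox library 2 of 14 were lower and none higher (median 0.16). Between the libraries 6 of 8 were past 2-fold lower in the knockout cells and none higher (median -2.13), beside 12 of 16 in the other CD8 cells (median -1.67). Ifit3, an antiviral RNA-binding protein, was at 180 and 13.5 CPM in Klrg1 CD8 cells of the flox and the knockout library, and at 176 and 47.3 CPM in the other CD8 cells. Ifi27l2a, a small interferon-induced protein, was at 1244 and 144 CPM, and at 808 and 581 CPM in the others, with 27.0% of its flox UMIs in 1 cell.

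Interferon genes differed between flox cells with 1 and with more Klrg1 UMIs. In those 29 flox cells Ifit3 was at 255 CPM and Isg15, a ubiquitin-like modifier, at 364 CPM, against 16.2 and 48.7 CPM in the 15 cells with at least 2. The knockout cells with at least 2 held 12.4 CPM of Ifit3 and 107 CPM of Isg15, so the order of the libraries for Isg15 was turned there, on 6 flox UMIs. Ifi27l2a remained apart at 706 and 122 CPM. By sex, Ifit3 was at 92.9 CPM in female and 473 CPM in male flox cells, and at 11.9 and 10.7 CPM in the knockout cells. In female cells alone the median log2 ratio of the list was -1.51.

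**Figure D5:**
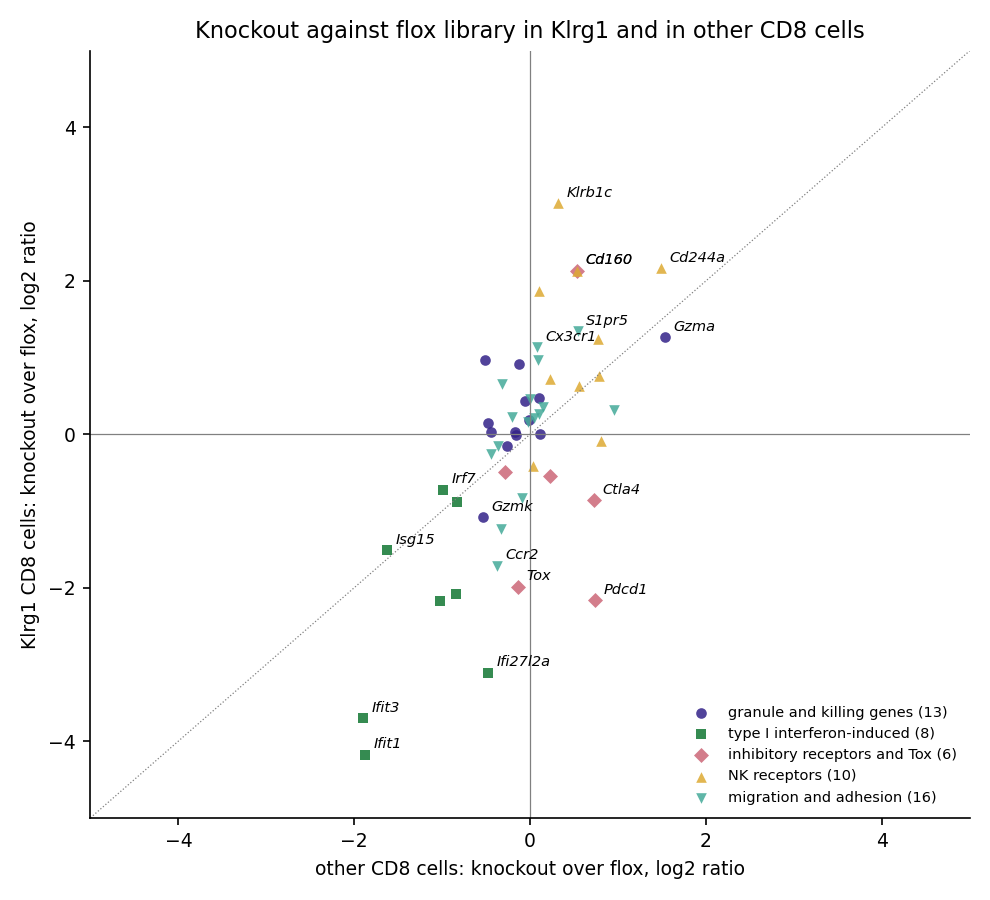
Log2 ratio of the knockout over the flox library in other CD8 cells (x axis) and in Klrg1 CD8 cells (y axis) for the genes of 5 lists measured in both; each point is 1 gene and the dotted line marks equal ratios (Cd160 stands in 2 lists). All 8 interferon-induced genes lie below 0 on both axes, Pdcd1 lies right of 0 but below it, with ratios of 1.67 and 0.224, and Klrb1c lies highest, with a ratio of 9.06 in Klrg1 CD8 cells.

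The remaining lists held few differences. T cell receptor signalling genes such as Lck, the kinase that starts the signal, at 530 against 377 CPM in the knockout and 472 against 398 CPM in the flox library, had 1 of 16 and 0 of 15 members past 2-fold higher, with medians of 0.15 and 0.33. Between the libraries 1 of 16 was higher, Trat1, and 1 lower, the co-stimulatory receptor gene Cd28, at 167 CPM in the knockout and 334 CPM in the flox cells. Immediate early genes had 1 of 16 members past 2-fold higher and 1 lower in the knockout library, and 3 of 13 higher in the flox library: Fos, Fosb and Egr1, factors switched on within minutes of a stimulus. Fos was at 472 against 233 CPM in the flox library, but the log2 ratios of Fos and Fosb were -0.72 and -0.61 in cells with at least 2 Klrg1 UMIs. Of 13 measured proliferation genes in the knockout library 1 was higher and 1 lower, and Mki67, which marks dividing cells, was at 47.3 CPM in 8.42% of knockout and 35.9 CPM in 18.2% of flox Klrg1 CD8 cells.

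Outside the lists, genes were named by size of ratio, and 96 genes met the rule as higher and 36 as lower in knockout Klrg1 CD8 cells. The leading ones that were higher were Rap1gap2, a GTPase activator of granule release, at 211 against 20.2 CPM, As3mt, an arsenic methyltransferase, at 104 against 12 CPM, Klrb1f, an NK lectin receptor, at 57.0 against 6.88 CPM, and Kcnj8, a potassium channel, at 166 against 25.6 CPM. Their flox values were 94.9 against 51.4 CPM, 38.5 against 16.6 CPM, 5.13 against 4.66 CPM and 53.9 against 17.2 CPM. Nebl, Gcnt2, Stard10, Dtx1, Borcs7, D1Ertd622e, Ncald and Baiap3 followed, with ratios from 3.65 to 6.46 in the knockout and from 0.930 to 3.36 in the flox library. The leading genes that were lower were Actn1, an actin crosslinker, at 6.0 against 54.6 CPM, Ier5l at 35.3 against 248 CPM, Aff3 at 19.5 against 128 CPM, and Tnfsf8, which encodes the CD30 ligand, at 9.75 against 55.1 CPM. Rgs10, Cd2ap, Slamf6, Dpp4, Socs3, Ssbp2, Bend4 and Fam169b followed, with ratios from 0.192 to 0.281 in the knockout and from 0.238 to 1.13 in the flox library. Slamf6, a surface receptor of less differentiated T cells, had the flox ratio of 1.13 (0.804 to 1.56).

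Between the libraries, 25 genes met the rule as higher and 60 as lower in the knockout Klrg1 CD8 cells. Klrb1f led at 11.1-fold (2.97 to 93.4), on 2 flox UMIs, followed by Gcnt2, Nebl, Jaml, Rcbtb2, Alkbh1, Dtx1, Rell1, Ptpn6, Chn2, Kcnj8 and Lgals3 with ratios from 3.0 to 11.0. Lgals3, which encodes galectin-3, was at 262 CPM in 67.4% of knockout and 87.2 CPM in 34.1% of flox cells. Ptpn6, the phosphatase SHP-1 that acts below inhibitory receptors, was at 107 and 25.7 CPM. Among genes that were lower, Crtam, a receptor induced on activated killer cells, was at 16.5 and 103 CPM, Slamf6 at 17.3 and 105 CPM, and Rnf213, an interferon-induced ubiquitin ligase, at 39.0 and 236 CPM. A330040F15Rik, Dpp4, Socs3, Isg20, Cd86, Ifngas1, Aff3, Tsix and Eif2ak2 were the others, with ratios from 0.146 to 0.263. Tsix overlaps Xist on the other strand and the sexes are unequal in the libraries, Ifngas1 lies beside Ifng, and A330040F15Rik lies among near-identical Schlafen genes, so these 3 are uncertain.

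Variable segments of the T cell receptor were counted to see how varied the cells were. A Trbv segment was seen in 16 of 44 flox and 40 of 190 knockout Klrg1 CD8 cells, spread over 11 and 18 segments, and a Trav segment in 15 and 72 cells over 12 and 35 segments. The most frequent in the knockout cells were Trav12-2 and Trav14n-3, each in 9 of 72 cells, and Trbv3 and Trbv12-2, each in 6 of 40. In the flox cells Trbv12-2 led with 3 of 16. A 3′ library reads few variable segments, and Trav segments have near copies, so clones could not be followed.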

How the data were processed

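The data are single-cell RNA counts of CD45+ cells from RPE and choroid, 1 library per genotype. The deposited matrices hold whole-number UMI counts per gene and barcode. Alignment to mm10 and counting with Cell Ranger are given by the submitters' processing notes; the versions, 4 for flox and 7.0.1 for knockout, are per the file headers. The flox matrix holds 1002803 barcodes, 783281 with a UMI, and the knockout matrix 4096 called barcodes, so the same filter was applied to both: at least 1000 UMIs, at least 300 genes and less than 10% mitochondrial UMIs. It kept 3418 and 3982 cells with 35068850 and 35816512 UMIs. The labels name a v2 kit; for flox this is uncertain, because of its number of barcodes. Of 32285 genes, 32158 matched GENCODE M21, which gave the gene coordinates.

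Members were found by the stated UMI rule, and the members and gene lists were chosen with earlier results of these data known. UMIs were summed per library and population. Levels have exact Poisson intervals, shares Clopper-Pearson intervals, and ratios conditional binomial intervals, all at 95%; they cover counting error only. Log2 ratios had 0.5 UMIs added. A gene was measured where equal levels would give 10 UMIs in the smaller group. Beyond the lists, up to 12 genes per direction were named by ratio among measured genes past 2-fold with 50 UMIs in both groups together, where the higher group had 50 CPM and 10% of cells with a UMI, and with an interval wholly beyond 1.5-fold; Xist and the mitochondrial, ribosomal, haemoglobin, receptor segment and Y-linked genes were not eligible. Genes counted as higher or lower carry no test, since 1 library per group has no replicates. A cell's sex was called by its UMIs of Xist against those of Y-linked genes. Doublets, 18 flox and 55 knockout cells by Scrublet (2 of them members), were kept and left out as an alternative. The other alternatives were UMI, mitochondrial, CD8 and Klrg1 minima, each sex alone, cells with Trdc or Ncr1 left out, thinning, median-ratio scaling, mean CPM per cell, other minima for measured genes, and each gene without its highest cell. The code was tested on simulated data. Python 3.11.15, numpy 2.4.6, scipy 1.17.1, pandas 2.3.3, scanpy 1.11.5 and matplotlib 3.10.9 were used. The promoter is from RefSeq, GRCm38.p6. Some results are not reported here.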

Additional observations from a re-analysis of the deposited data

Results flagged for a closer look

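The genes below had ratios on opposite sides of 1, each with an interval that excluded 1, in 2 settings of the same contrast; none of these differences was tested, since there is 1 library per group. For Klrg1 CD8 cells over other CD8 cells, the ratios in the knockout and the flox library were 1.32 and 0.284 for Alkbh1, 1.33 and 0.270 for Ccl3, 1.28 and 0.383 for Ptpn6, and 1.55 and 0.467 for Il18r1. In the other direction they were 0.361 and 1.31 for Tox, 0.391 and 1.71 for Crtam, 0.248 and 1.54 for Ifi27l2a, and 0.416 and 1.51 for Ikzf2, which encodes Helios.

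For the knockout over the flox library, the ratios in Klrg1 CD8 cells and in the other CD8 cells were 2.71 and 0.725 for As3mt, 3.92 and 0.796 for Ccl3, 2.37 and 0.714 for Il18r1, 2.22 and 0.394 for Rap1gap2, and 2.63 and 0.894 for Rora. They were 0.362 and 3.06 for Ier5l and 0.224 and 1.67 for Pdcd1.

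For Klrg1 CD8 cells over other CD8 cells in the knockout library, the ratios in female and in male cells were 0.197 and 1.34 for Jun, 0.322 and 2.28 for Top2a, and 1.90 and 0.385 for Tyrobp.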

How the results depend on the processing

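The limits are the 44 flox cells, 1 library per group, the unequal sexes and the single Klrg1 UMI that chose many cells. A further limit is that the Cell Ranger version differed between the libraries. No paired analysis was possible because each group has 1 library, and leaving out a replicate was not possible for the same reason. The difference in the share of CD8 cells with Klrg1, 12.2 points, was 8.15 in female and 15.4 in male cells, and 5.01 and 8.53 with cells thinned to 1000 and 2000 UMIs. The counts of genes past 2-fold are given in the order Klrg1 over other CD8 cells in the knockout, the same in the flox library, knockout over flox in Klrg1 CD8 cells, and in other CD8 cells. They were 619, 201, 405 and 469; 268, 36, 82 and 147 with at least 30 expected UMIs; 1337, 924, 1243 and 1421 with at least 3; and 353, 38, 104 and 291 with cells thinned. In male cells alone the second was 130 and the third 248, in female cells the fourth was 289, and with at least 2 Klrg1 UMIs the third was 138. A stricter minimum or thinning measures fewer genes or UMIs; for the other settings the cause was not tested. With the highest cell of each gene left out, the second was 300, of which 20 higher and 280 lower, against 71 and 130; taking the top 1 of 44 cells away lowers the flox level by construction.

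The 211 gene ratios past 2-fold that the text could name were recomputed under up to 16 other settings: 2743 values kept their direction and lay within the interval, 311 kept their direction outside it, and 14 reversed (log2 ratios). In the knockout library Rcbtb2 was -0.76 in female cells. In the flox library Fcer1g was 0.068 thinned and, with at least 2 Klrg1 UMIs, Fos -0.72, Fosb -0.61, Il18r1 0.13 and Tcrg-C2 0.035. For knockout over flox in Klrg1 CD8 cells Eomes was 0.023, Fosb 0.53, Il18r1 -0.018 and Isg15 1.03 with at least 2 Klrg1 UMIs, Eomes 0.15 in female and Il18r1 -0.042 in male cells, and Gzmm -0.38 and Stmn1 -0.23 thinned. Settings in which a gene fell below the measured minimum were not counted, except thinning and leaving out the highest cell. Turned orders on few UMIs, such as those of Klre1 and Dapl1 in male flox cells, are therefore not among the 14.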

Other observations

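Cd40lg, the ligand of CD40 and best known from CD4 helper cells, was at 80.3 CPM (65.8 to 97.0) in knockout Klrg1 CD8 cells, in 20.5% of them, against 15.1 CPM in the other CD8 cells. In the flox library it was at 0 UMIs in Klrg1 CD8 cells and 8.45 CPM in the others, so the knockout level was at least 10.4-fold higher against a floor of 3 counts over the group. Cd4 was at 0 in all of these cells by the rule. Trat1, an adaptor of the T cell receptor complex, was at 76.5 against 21.2 CPM in the knockout and 12.8 against 8.79 CPM in the flox library.

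Gm4208, a transcript on the list of NKT and MAIT cell genes, was higher in Klrg1 CD8 cells of both libraries, at 38.3 against 5.93 CPM in the knockout and 33.4 against 3.97 CPM in the flox library. In the flox library it fell below the minimum of 10 expected UMIs, so its ratio there did not count as measured. Trav11, the segment of invariant NKT cells, was at 0 in both. Foxp3 gave 10 UMIs in the knockout Klrg1 CD8 cells, all in 1 cell. Trav21-dv12, chosen after its values were seen, was seen in 59 of 316 other CD8 cells of the knockout library with a Trav segment, in 3 of 150 in the flox library, and in none of the Klrg1 CD8 cells.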
